A study of Tetranychus urticae with 4 samples.

Results

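The 6 ATP-binding cassette (ABC) transporter genes of the spider mite Tetranychus urticae described here were measured in reproductive diapause, 2 of class C (tetur23g02452, named TuABCC-38 by the study, and tetur11g05990, TuABCC-29) and 4 of class G (tetur17g02510, TuABCG-16; tetur13g02010, TuABCG-11; tetur03g04350, TuABCG-04; and tetur02g11270, TuABCG-01). They are 6 of the 20 ABC genes in the study's own list of transporters that differed in diapause, and 6 of 18217 genes on the array. The array probes that carry each gene's identifier gave its values. Since the list was drawn up on the same contrast between diapausing and non-diapausing mites, the members' own ratios are given below as a description and without a test.

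On 4 arrays the study compared RNA of diapausing adult females, recognised by their orange colour, with RNA of non-diapausing adult females of the same laboratory strain, LS-VL. Both groups came from 17 °C, 80% relative humidity and 8 h of light to 16 h of dark, so every mite had met the conditions that bring on diapause and only a part of the strain had entered it. Each sample was a pool of whole females, with more females in a diapausing sample than in a non-diapausing one, and the mites were collected from a single population, so the spread reported, and any p-value, covers these samples of it only. On every array the diapausing sample was labelled with Cy5 and the non-diapausing sample with Cy3, and because the dyes were never exchanged, effects of dye and of diapause cannot be told apart. In RNA of whole mites, fewer cells of a type and less transcript per cell cannot be told apart either.

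ABC transporters are membrane proteins that use ATP to move molecules across membranes. Class C holds the multidrug resistance-associated proteins, efflux pumps that carry drugs, toxins and their conjugates with glutathione or glucuronic acid out of cells. Class G proteins must pair with a partner to make a working pump, and the class includes the white, scarlet and brown proteins that bring eye pigment precursors into Drosophila cells as well as transporters of sterols in mammals. Reproductive diapause in mites is an arrest of egg laying, entered with little or no feeding, and ecdysteroid and juvenoid signalling is widely studied as its control in arthropods.

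The 4 arrays were alike in the share of spots detected and in their ratios across genes, but not in their spike-in controls, described below. Between 67.2% and 69.5% of gene spots were well above background in the non-diapausing channel and between 69.2% and 72.1% in the diapausing channel, and no gene spot was saturated. Log2 ratios of all 14986 genes tested correlated across genes between arrays with r from 0.877 to 0.914. The median log2 ratio of these genes was 0.10, and scaling to the RNA spike-in controls moved it to 0.47. The 6 vitellogenin genes, which encode the yolk protein precursors of laying females, were called lower in diapausing females in 6 of 6 cases. Of all genes tested, 9.1% were called lower. The study named these 6 among its most reduced genes in the same samples. Some of their probes also listed another gene, so the 6 are not all separate measurements. Their mean log2 ratios ran from -9.22 to -7.74. On replicate 4 their log2 ratios were less low, from -6.28 to -5.27, against -11.51 to -7.60 on replicates 1 to 3. The 3 reference genes named by the study had mean log2 ratios from -0.31 to 0.40 and none was called. None reached 2-fold, but limma gave adjusted p-values of 0.0105 for actin, at -0.31, and 0.00302 for ubiquitin C, at 0.40. RP49, at 0.04, had an adjusted p of 0.626 (limma).

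Of the 6 transporters, 4 were higher in diapausing females and 2 lower, one in each direction in class C and 3 higher with 1 lower in class G. A gene was called where limma gave an adjusted p under 0.05 and the mean ratio was at least 2-fold, a rule that 18.1% of all genes tested passed, 9.04% as higher and 9.1% as lower. All 6 members passed it, which was likely beforehand, since the study had called them on these same samples. The signals of both groups did not overlap for any of the 6, and this separation was found with diapausing females higher in 33.5% and lower in 24.7% of all genes. The plot of signals shows each member on each array.

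**Figure D1:**
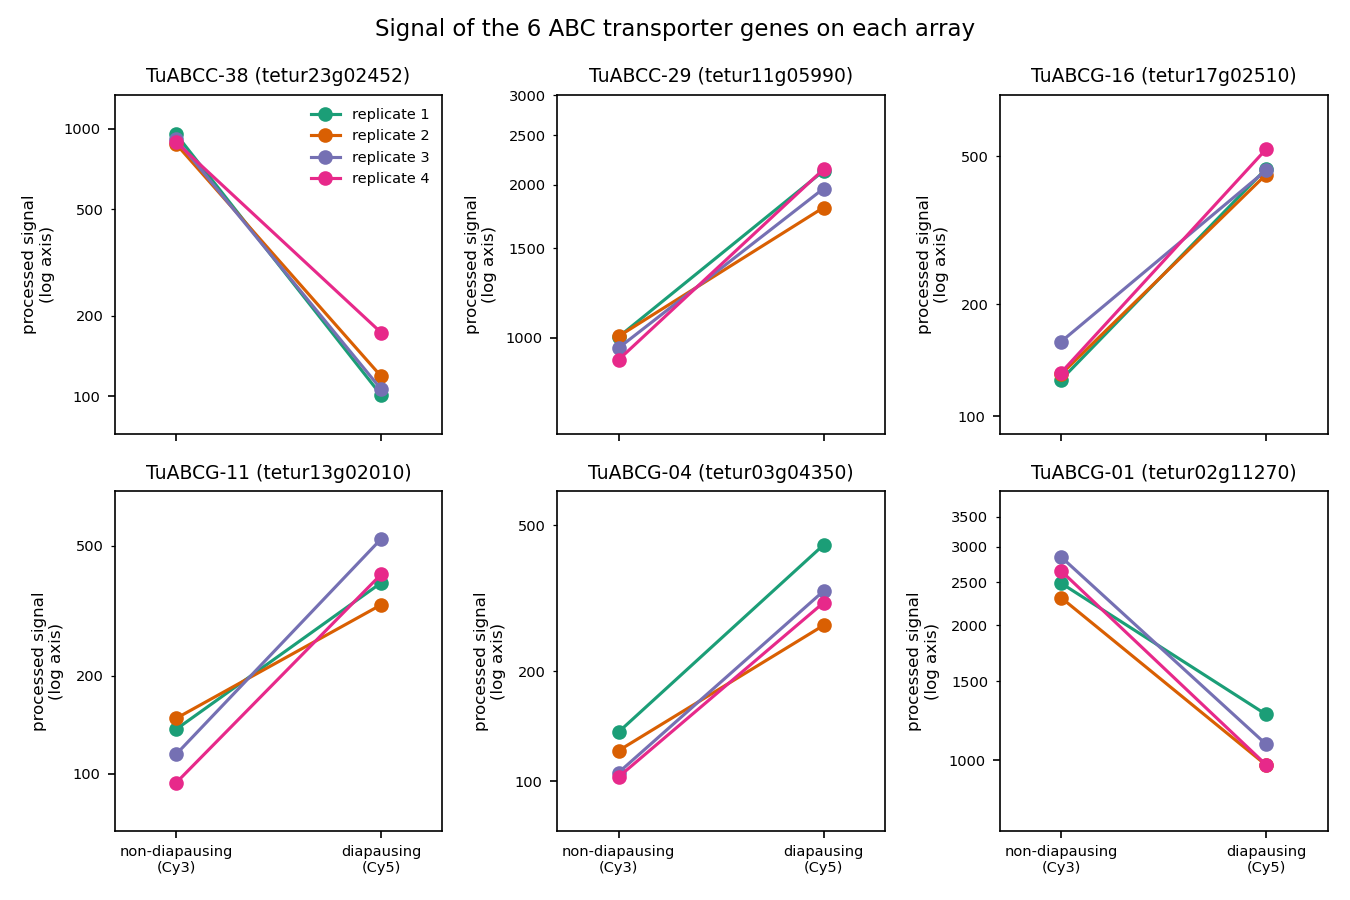
Processed signal (log axis, mean over a gene's kept probes) of each member in the non-diapausing (Cy3) and diapausing (Cy5) sample of the 4 arrays; each line joins the samples of 1 array. TuABCC-38 and TuABCG-01 ran downwards and the other 4 genes upwards on every array, with no overlap between groups; signals are comparable within a panel only.

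TuABCC-38 (tetur23g02452), a class C efflux pump by its family, had the largest ratio of the 6 members. Its signal in non-diapausing females was 955, 878, 915 and 891 on replicates 1 to 4. In diapausing females it was 101.3, 119.1, 106.6 and 173.3. The non-diapausing samples lay close together while the diapausing sample of replicate 4 stood above the other three, so nearly all of the spread came from the diapausing side. The SD of log2 signal was 0.350 among diapausing and 0.0532 among non-diapausing samples.

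The log2 ratios of TuABCC-38 were -3.24, -2.88, -3.10 and -2.36, a mean of -2.90 ± 0.385 (SD, n = 4), or 7.44-fold lower in diapausing females. It ranked 241st from the lowest ratio of all genes. Replicate 4, the array with the smallest difference for this gene, was also the one on which the vitellogenins were least low; the part of that in the result was not tested. Without replicate 4 the mean was -3.07. The gene has 3 probes, each printed once, and their means lay between -3.03 and -2.80. One of them spread the most, from -3.67 on replicate 1 to -1.96 on replicate 4, with an SD of 0.698. Background correction by normexp gave smaller differences, -2.10 with loess and -1.83 with median centring, both still past 2-fold.

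TuABCC-29 (tetur11g05990), the class C member that went the other way, was the member nearest to the 2-fold threshold. The diapausing signals were 2129, 1803, 1965 and 2144 on replicates 1 to 4. Those of non-diapausing females were 1004, 1007, 955 and 905. Every diapausing sample was well above every non-diapausing one, and samples of a group varied little, with the highest 1.19 times the lowest among diapausing and 1.11 times among non-diapausing samples. Log2 ratios were 1.08, 0.84, 1.04 and 1.24, a mean of 1.05 ± 0.166 (SD, n = 4), or 2.07-fold higher. Its 6 probes gave means from 0.97 to 1.12, of which 4 were past 2-fold. The size of the change was thus close to the threshold on every probe. Leaving out replicate 4 lowered the mean to 0.99 and normexp with loess to 0.89, and both took the gene out of the calls. On the other side of the threshold stood TuABCC-36 (tetur40g00010), a class C gene of the study's list that had a mean of -0.66 ± 0.279 (SD, n = 4) and was not called here. Its value turned on the choice of probes, at -0.17 from the probes that listed no other gene and at -1.06, past 2-fold, from the brightest probe.

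TuABCG-16 (tetur17g02510) was identified as an orthologue of E23 of Drosophila, a transporter gene that is switched on by the moulting hormone ecdysone and limits the response to it in that fly. Its diapausing signals were 463, 446, 458 and 522 on replicates 1 to 4. Non-diapausing signals were 125, 130, 159 and 131. The groups were far apart, with replicate 3 highest among the non-diapausing samples and replicate 4 highest among the diapausing ones. Log2 ratios were 1.89, 1.78, 1.53 and 2.00, a mean of 1.80 ± 0.199 (SD, n = 4), or 3.48-fold higher in diapausing females. This was the highest ratio of the 4 class G members and ranked 334th among all genes. All 6 probes gave means between 1.67 and 1.93. With normexp the mean was 1.12 after loess and 1.38 after median centring, so the gene stayed past 2-fold with a smaller difference.

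TuABCG-11 (tetur13g02010), a class G transporter for which the sources give no substrate, was the most variable member. It had diapausing signals of 385, 330, 525 and 408 and non-diapausing signals of 137, 148, 115 and 93.7 on replicates 1 to 4. Replicates 3 and 4 were lower than replicates 1 and 2 in the non-diapausing channel and higher in the diapausing channel, so the difference widened from both sides. Log2 ratios were 1.49, 1.16, 2.19 and 2.12, a mean of 1.74 ± 0.501 (SD, n = 4), or 3.34-fold higher. The SD over arrays was larger than that of 89.0% of all genes. Replicates 1 and 2 lay in one row of the slide and replicates 3 and 4 in the other, with means of 1.32 and 2.16 for this gene; the part of slide position in the result was not tested. Both rows were past 2-fold. Probe means ran from 1.53 to 1.96, and the largest SD of a probe was 0.792. Normexp with loess gave 1.05.

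TuABCG-04 (tetur03g04350), again of class G with no substrate given, was the member that lost probes to the filter on low signals. Diapausing signals were 442, 267, 331 and 307 on replicates 1 to 4, and non-diapausing signals 136, 121, 106 and 103. Replicate 1 was highest and replicate 2 lowest in the diapausing channel, yet the lowest diapausing sample was still far above the highest non-diapausing one. Log2 ratios were 1.70, 1.14, 1.64 and 1.58, a mean of 1.51 ± 0.257 (SD, n = 4), or 2.86-fold higher. Of its 6 probes 4 were kept, with means from 1.36 to 1.70. The remaining probes were not well above background in either channel on any array, with mean signals from 6.62 to 12.3, and gave 0.68 and 0.74. With these dim probes included the mean fell to 1.24. It was 0.83 with normexp and loess, which took the gene out of the calls.

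TuABCG-01 (tetur02g11270) was the only class G member lower in diapausing females. Its non-diapausing signals were 2486, 2307, 2845 and 2648 on replicates 1 to 4. Its diapausing signals were 1267, 976, 1087 and 978. The diapausing sample of replicate 1 was the highest of its group and remained well below all non-diapausing samples. Log2 ratios were -0.97, -1.24, -1.39 and -1.44, a mean of -1.26 ± 0.209 (SD, n = 4), or 2.39-fold lower. Replicate 1 alone was within 2-fold. The 6 probes gave means between -1.46 and -1.09, all past 2-fold. Scaling to the spike-in controls, which moved all genes upwards, left -0.90, and normexp with median centring left -0.92; neither was called.

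How close measurements repeated within the arrays lay to each other differed between the genes. The 6 genes had 33 probes in 48 spots per array, none of which listed another gene, and 31 probes were kept. All 124 ratios of a kept probe on an array had the sign of their gene. The genes were chosen for their ratios, so this agreement is no separate evidence. In 5 of the genes the probes fell in groups printed once or 2 times per array. The groups matched probe by probe in signal, as in TuABCC-29, where diapausing signals were 2154 and 2110, 1473 and 1467, and 2566 and 2578. Whether they share sequences was not tested, so 6 probes need not be 6 separate measurements. The means of these groups differed by 0.00653 for TuABCC-29 and by 0.0674 for TuABCG-04, the smallest and largest differences among the 5. Spots of the same probe on the same array differed by a median of 0.0403 in log2 ratio for TuABCG-01 and 0.270 for TuABCG-04, against 0.0743 over all 2342 kept probes printed 2 times. For TuABCG-11 this median was 0.155 and the largest difference 0.862. Of the 5 genes, TuABCG-11 and TuABCG-04 were those whose repeated spots differed by more than the median of all such probes.

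**Figure D2:**
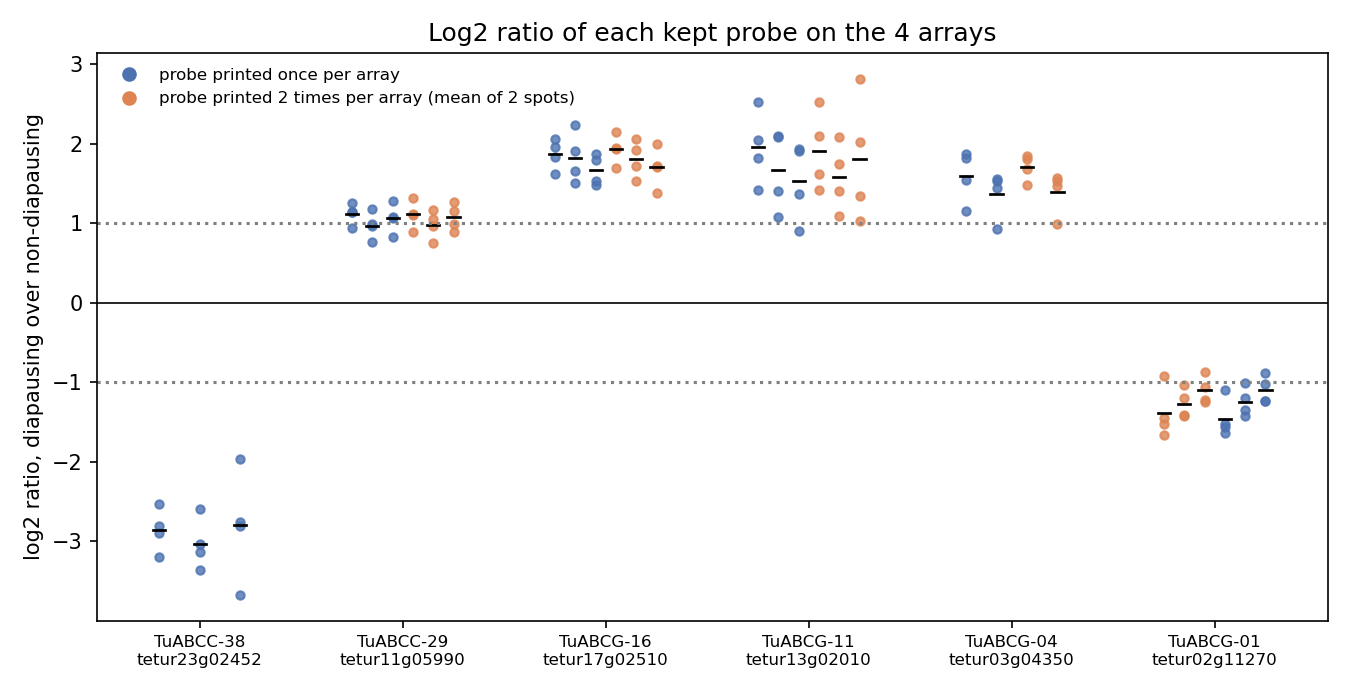
Log2 ratio (diapausing over non-diapausing) of each kept probe on the 4 arrays (points), with the probe's mean (black bar); dotted lines mark 2-fold. All 31 kept probes lay on the side of their gene, and the widest scatter was in TuABCG-11 and in the third probe of TuABCC-38.

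The slide position of the arrays moved with the spike-in controls. A line of observed on expected log2 ratio of the spike-in controls had intercepts of -0.03 and 0.13 on replicates 1 and 3, in one column of the slide. On replicates 2 and 4, in the other column, the intercepts were -0.74 and -0.81. Means of the members in these columns differed most for TuABCC-38, at -3.17 in the column of replicates 1 and 3 and -2.62 in the other. For TuABCC-29 they were 1.06 and 1.04. The columns gave 1.71 and 1.89 for TuABCG-16, 1.84 and 1.64 for TuABCG-11, 1.67 and 1.36 for TuABCG-04, and -1.18 and -1.34 for TuABCG-01. Each member kept its direction and passed 2-fold in both columns. By row, TuABCC-29 was within 2-fold in the row of replicates 1 and 2, at 0.96, and at 1.14 in the row of replicates 3 and 4. The other 5 members passed 2-fold in both rows.

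Among the other 8 class C genes of the study's list, 7 were called lower, 1 was not called and none was higher, with a median log2 ratio of -1.44. Of all genes tested, 9.1% were called lower and 9.04% higher, and the median log2 ratio of all was 0.10. This list was chosen on these samples and is no independent evidence of a direction. Its lowest gene was TuABCC-35 (tetur25g01780) at -2.82 ± 0.346 (SD, n = 4), and its highest was TuABCC-36. With normexp TuABCC-35 was at -1.01 after loess and at -0.98, within 2-fold, after median centring. Probes of 7 of the 8 genes also listed another gene, so these values are not all separate measurements. The class C members TuABCC-38 and TuABCC-29 shared no probe.

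Of the 6 class H genes of that list, a class of ABC transporters found in arthropods and absent from mammals, 3 were called higher and 3 lower. Among all genes tested the shares were 9.04% higher and 9.1% lower. The extremes of class H were TuABCH-13 (tetur18g00230) at 2.43 ± 0.984 and TuABCH-16 (tetur26g02620) at -2.53 ± 0.126 (SD, n = 4). TuABCG-16, the highest member, had a lower mean ratio than TuABCH-13, and TuABCC-38 a lower one than TuABCH-16. All 4 higher members lay between 1.05 and 1.80.

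**Figure D3:**
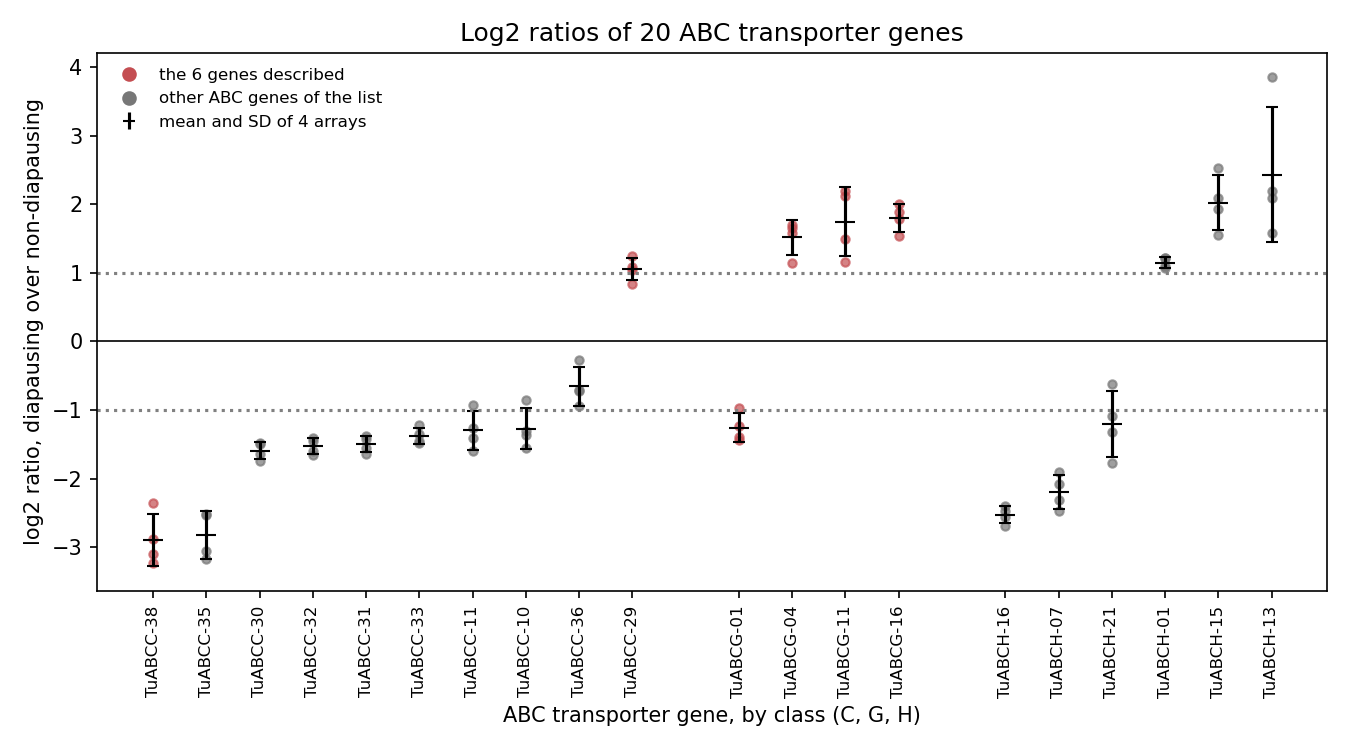
Log2 ratio (diapausing over non-diapausing) of the 20 ABC transporter genes of the study's list, ordered within classes C, G and H; points are the 4 arrays and bars the mean and SD. TuABCC-29 was the only class C gene above 0, and TuABCG-01 the only class G gene below it, in a list chosen on these samples.

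Beside the E23 orthologue TuABCG-16 were set 4 of the nuclear receptor and hormone genes that the study names, since ecdysteroids act through nuclear receptors. The study states that the moulting hormone of T. urticae is ponasterone A, unlike that of flies. The retinoid X receptor gene (tetur01g09220), whose product in arthropods partners the ecdysone receptor, had a mean log2 ratio of -1.20 ± 0.173 (SD, n = 4). The gene tetur36g00260, a paralogue of DHR96, which in Drosophila is a receptor that responds to foreign compounds and lipids, was at -2.02 ± 0.252 (SD, n = 4). Both were called lower, as were 9.1% of all genes tested, while TuABCG-16 was higher. The study named both as lower in these samples and ties tetur36g00260 to the response to foreign compounds. A link of either to TuABCG-16 was not tested. The gene for ftz transcription factor 1 (tetur08g06490), in Drosophila a nuclear receptor that prepares tissues for ecdysone, was at 0.72 ± 0.207 (SD, n = 4). That for juvenile hormone epoxide hydrolase (tetur11g03700), in insects an enzyme that breaks down juvenile hormone, was at 0.33 ± 0.122 (SD, n = 4). Neither reached 2-fold, although limma gave adjusted p-values of 0.00224 and 0.0119. The gene tetur08g06490 passed 2-fold with its brightest probe, at 1.103, and with spike-in scaling, at 1.09, and was at 0.38 without the detection filter. The receptor calls were lost at 2-fold under some processing, with means of -0.84 for tetur01g09220 after scaling to the spike-in controls and of -0.88 for tetur36g00260 after normexp with loess.

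The genes numbered next to the members on the same scaffold were chosen by number alone. Of 12 such neighbours, 1 was called, where 18.1% of all genes tested were, and the other 11 had mean log2 ratios from -0.58 to 0.77. Without the 2-fold condition, 7 of the 12 had an adjusted p under 0.05 (limma). The share of all genes under that condition is not given here, so this count does not mark the neighbours off from other genes. The gene called was tetur17g02520, which follows TuABCG-16 in number. Its log2 ratios were -1.81, -1.97, -1.83 and -2.00, a mean of -1.90 ± 0.0976 (SD, n = 4), or 3.73-fold lower (limma, adjusted p = 6.99e-05). It fell in diapausing females on all 4 arrays, whereas TuABCG-16 was higher on all 4. The gene before TuABCG-16, tetur17g02500, was at 0.07.

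TuABCC-38 lay between tetur23g02451 at 0.77 and tetur23g02453 at 0.04, and TuABCC-29 between tetur11g05980 at -0.16 and tetur11g06010 at 0.09. The gene tetur23g02451 was not called, but passed 2-fold after scaling to the spike-in controls, at 1.14, and with normexp and median centring, at 1.00. TuABCG-11 had tetur13g01990 at 0.21 and tetur13g02020 at 0.51 beside it. TuABCG-04 had tetur03g04340 at -0.43 and tetur03g04390 at -0.58. The values of tetur13g02020 and tetur03g04390 each rest on 1 kept probe of 3. Without the detection filter these genes were at 0.16 and -0.30. TuABCG-01, which was lower, had tetur02g11250 at 0.33 and tetur02g11280 at 0.50.

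The genes nearest to each member by the Euclidean distance over the 4 log2 ratios were found among all genes tested, 2 for each member. For TuABCC-38 they were tetur09g04190 at a distance of 0.390 and tetur09g04200 at 0.392, whose own numbers follow each other. Both had their less low ratios on replicates 2 and 4, with means of -2.74 and -2.79. TuABCC-29 had the closest match of any member, tetur30g02040 at 0.121, followed by tetur13g03880 at 0.127. TuABCG-16 was nearest to tetur04g06570 at 0.139 and tetur87g00020 at 0.217.

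For TuABCG-11 the nearest genes were tetur315g00010 at 0.198 and tetur11g06070 at 0.273. These genes had the same split of arrays, with higher ratios on replicates 3 and 4 than on replicates 1 and 2, as a small distance requires. The mean of tetur315g00010, 1.77 from 2 kept probes of 3, fell with normexp to 0.36 after loess and 0.30 after median centring. Under these settings TuABCG-11 was at 1.05 and 1.28 and tetur11g06070 at 1.24 and 1.53. TuABCG-04 was nearest to tetur13g02430 at 0.148 and tetur01g15480 at 0.224, both with their lowest ratio on replicate 2. The value of tetur13g02430 rests on 1 kept probe of 4. TuABCG-01 was nearest to tetur03g01950 at 0.130 and tetur09g00440 at 0.146. Of these 12 genes, the study names tetur11g06070 as the cytochrome P450 gene CYP386A1, and all 6 of its probes also listed another gene. So did all 5 kept probes of tetur13g03880 and some of those of tetur03g01950 and tetur09g00440. Genes other than tetur11g06070 are given by identifier only. All but tetur30g02040, which at 1.00 was just short of 2-fold, were called in their member's direction. Since all 12 were picked for ratios like those of a called member, this followed from the selection.

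The direction of the 6 members was the same under 16 alternative ways of processing the arrays, while their size was not. Over these the log2 ratio ran from -3.07 to -1.83 for TuABCC-38 and from 0.89 to 1.42 for TuABCC-29. It ran from 1.12 to 2.16 for TuABCG-16, from 1.05 to 2.10 for TuABCG-11 and from 0.83 to 1.88 for TuABCG-04. For TuABCG-01 it ran from -1.36 to -0.90. TuABCC-38, TuABCG-16 and TuABCG-11 were called under all 16, TuABCG-04 and TuABCG-01 under 14 and TuABCC-29 under 13. These counts overstate the check, since not every alternative could move a ratio. The deposited values, detection on every array, probes listing no other gene and slide row or column as covariate returned the reported ratios of all 6. Separate channels repeated the ratios of normexp with loess. A stricter test, for a change beyond 2-fold, also leaves the ratios as they are and is not among the 16. Under it TuABCC-38, TuABCG-16 and TuABCG-04 were called and TuABCC-29, TuABCG-11 and TuABCG-01 were not.

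**Figure D4:**
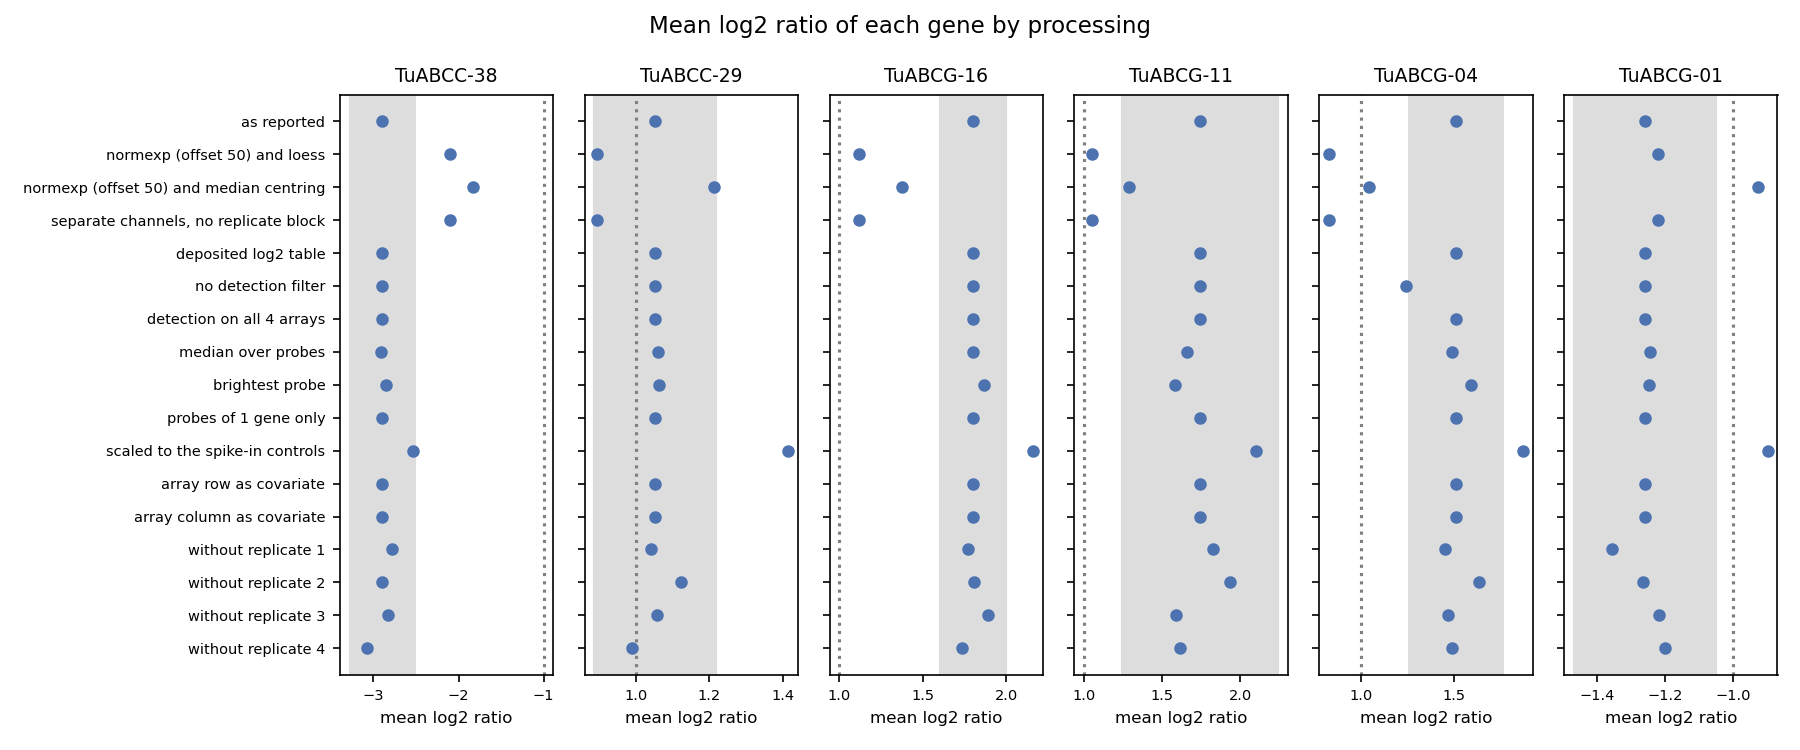
Mean log2 ratio (diapausing over non-diapausing) of each member as reported and under 16 alternatives; the grey band is 1 SD over arrays around the reported mean and the dotted line marks 2-fold. All points of a gene lie on one side of 0, and those for TuABCC-29, TuABCG-04 and TuABCG-01 lie on both sides of 2-fold.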

How the data were processed

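Custom Agilent 2-colour arrays on 1 slide were read with Agilent Feature Extraction (version 10.7.1.1 per the file headers). The deposited scanner files hold signal intensity per channel, background-subtracted and dye-normalized by that software, and the log10 ratio of Cy5 over Cy3. The authors' deposited value table holds the same ratios as log2 values. Ratios were converted to log2. Control spots and spots flagged as outliers were left out, and a probe was kept if 2 or more arrays had it well above background in either channel. Spots were averaged per probe and probes per gene. Mean gene ratios were tested against 0 with limma (version 3.58.1, R 4.3.3; lmFit, eBayes) over 14986 genes with Benjamini-Hochberg adjustment, and called at adjusted p under 0.05 and at least 2-fold. The code was tested on simulated data. The study's methods name no test.

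Named genes were the 6 members and the highest and lowest other ABC genes per class of the study's list. Also named were 4 receptor and hormone genes, the nearest numbered genes with a value and the 2 genes nearest in ratio. The members and lists were chosen with earlier results of these data known, and the study's list was chosen on these samples. Each array pairs 1 sample of each group, so the ratio is the paired value. Deviations of same-numbered samples from their group means correlated with r from 0.0558 to 0.196. Alternatives covered background correction, dye normalization, pairing, probe filters and summaries, spike-in scaling, slide position, the threshold and each replicate left out. No coordinates or sequences were used here. The number of arrays limits the precision.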

Additional observations from a re-analysis of the deposited data

How the results depend on the processing

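No member changed sign under any alternative run. Of all genes, 1355 were called higher and 1364 lower. These became 337 and 804 with normexp (offset 50) and loess, 644 and 604 with normexp and median centring, and 459 higher and 712 lower with a test for a change beyond 2-fold, while spike-in scaling gave 2787 higher. Analysing the channels separately with no replicate block, so without the pairing by array, gave 337 higher, 804 lower and 2 members higher, with the log2 ratios of normexp and loess. Members called higher fell from 4 to 2 with normexp and loess and with the test beyond 2-fold. Members called lower fell from 2 to 1 with normexp and median centring, with spike-in scaling and with the test beyond 2-fold. Leaving out 1 replicate gave 3 to 4 members higher and 2 lower.

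With normexp and loess, and with no replicate block, the log2 ratio became -2.10 for TuABCC-38, 1.12 for TuABCG-16, 1.05 for TuABCG-11 and 0.83 for TuABCG-04. With median centring it was -1.83 for TuABCC-38, 1.38 for TuABCG-16, 1.04 for TuABCG-04 and -0.92 for TuABCG-01. Scaled to the spike-in controls it was 1.42 for TuABCC-29, 2.16 for TuABCG-16, 1.88 for TuABCG-04 and -0.90 for TuABCG-01. Without a detection filter TuABCG-04 was at 1.24. Spike-in scaling adds a constant to each array's ratios, and for the other alternatives the cause was not tested.

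Signs turned for genes near 0 and for tetur13g02430, which is near TuABCG-04 in its ratios. That gene had been called higher at 1.56 from 1 kept probe. With normexp and loess, and with no replicate block, tetur23g02453 was at -0.0661 and tetur17g02500 at -0.0329. With median centring tetur23g02453 was at -0.0304, tetur11g05980 at 0.11 and tetur13g02430 at -0.0109. Spike-in scaling gave 0.20 for tetur11g05980 and 0.0536 for tetur09g05350 (actin). The brightest probe put tetur17g02500 at -0.00301, and the median over probes put tetur18g03590 (RP49) at -0.00442. Leaving out 1 replicate gave -0.0163 to 0.0795 for tetur23g02453, -0.0333 to 0.19 for tetur11g06010 and -0.00501 to 0.0786 for tetur18g03590.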
